A study of Caenorhabditis elegans with 6 samples.

Results

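Whole adult Caenorhabditis elegans that received the control agent were profiled by RNA sequencing, and the baseline transcriptome of these animals is described here. The members are the 3 libraries labelled control among the 6 libraries of the series, numbered here as control replicates 1 to 3. The animals were wild-type hermaphrodites of strain Bristol N2, taken 5 days after the last larval stage (L4). According to the study's methods, nematodes in RNA interference experiments were fed Escherichia coli HT115, the controls carrying the empty vector L4440, so these worms lived on feeding bacteria and not on the laboratory food strain OP50. Each library was made from total RNA of a population of worms, so all tissues, and the eggs held in the uterus, were measured together. The labels do not say whether the 3 libraries came from separate cultures, and the spread between them may be partly technical. In such bulk RNA, more cells of a type and more RNA per cell cannot be told apart.

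The adult hermaphrodite is a self-fertile animal whose body holds a fixed number of somatic cells and a large gonad. The intestine makes vitellogenins, yolk lipoproteins that are secreted into the body cavity and taken up by growing oocytes, and the gonad loads oocytes with maternal messenger RNA, ribosomes and eggshell proteins. Sperm are made in a burst before the switch to oocytes, and the cuticle is rebuilt in larval moults and no longer in the adult. These programmes give the groups in which the genes are described below.

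The control libraries held 43274827, 32784443 and 41377712 reads counted in genes for replicates 1, 2 and 3. Of 46589 genes listed in the table, 23672 (50.8%) had at least 1 read in at least 1 control library, and 18415 had a read in each of the 3. A single library had reads in 20857 ± 780 genes (s.d., n = 3), the lowest number being the 19961 of replicate 2, which was also the shallowest. A gene with no read in a library may still be present at up to 3 reads, which is 0.0693, 0.0915 and 0.0725 reads per 1000000 counted reads (CPM) in replicates 1, 2 and 3. Protein-coding genes made up 20532 rows, and 19648 of them (95.7%) had a read while 884 had none.

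Levels below are given as RPKM, reads per kilobase of exon scaled to the total of counted reads, which allows genes of different length to be compared. The median protein-coding gene stood at 1.77 RPKM, with quartiles at 0.146 and 26.1 RPKM. In all, 11375 protein-coding genes (55.4%) reached a mean of at least 1 RPKM. The middle of the range carried most of the reads. The 5472 protein-coding genes between 10 and 100 RPKM held 41.2% of counted reads, the 1375 between 100 and 1000 RPKM held 38.6%, and the 102 genes at or above 1000 RPKM held 16.47%. At the lower end, 3566 protein-coding genes with a read stayed under 0.1 RPKM and together took 0.0159% of reads.

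No single gene dominated the libraries. In each library, 50% of the reads lay in the highest 872, 857 and 868 genes of replicates 1, 2 and 3 (866 ± 7.77, n = 3), and 90% lay in 4459, 4283 and 4431 genes. The 10 genes highest by mean RPKM held 4.24 ± 0.169% of reads (n = 3), and the 100 highest held 16.411 ± 0.139%. When genes were ranked by reads instead of by RPKM, long transcripts moved up and the top 10 held 6.87 ± 0.635%.

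**Figure D1:**
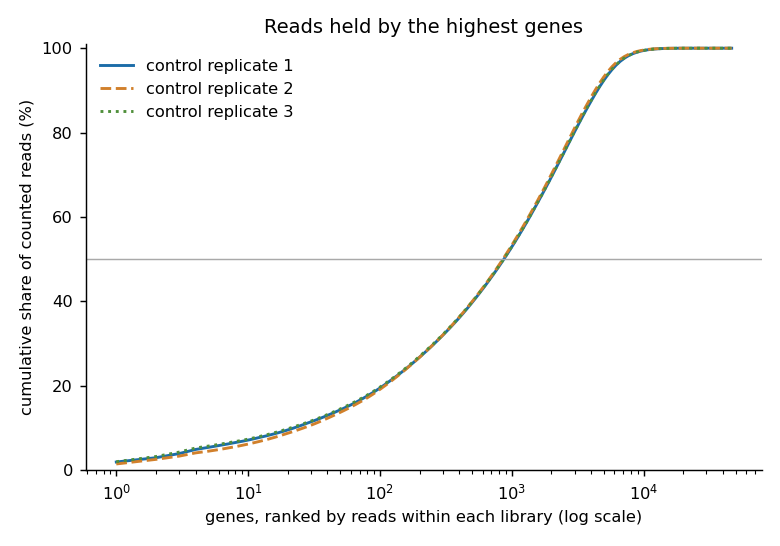
Cumulative share of counted reads (%) against the number of genes, ranked by reads within each control library (log scale), with 1 line per library and a grey line at 50%. The 3 lines cross 50% between 857 and 872 genes.

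The 25 genes at the head of the ranking were mixed in function, with ribosomal protein genes the most numerous. Elongation factor eef-1A.1, which brings aminoacyl-tRNA to the ribosome, stood first with 6547, 6997 and 6728 RPKM in replicates 1, 2 and 3 (mean 6757 ± 226). It lies on chromosome III, 6970026 to 6971712 of WBcel235, and its exons overlap the opposite-strand gene F31E3.12. Its level was well apart from that of the second gene, and all 3 libraries placed it above every other gene's value. The second was sip-1, a small heat-shock protein, with 3590, 4296 and 3503 RPKM (mean 3796 ± 435). The third was vit-6, the vitellogenin gene on chromosome IV (8261157 to 8266459), with 3782, 2868 and 3909 RPKM (mean 3520 ± 568). The order of sip-1 and vit-6 differed between libraries, since sip-1 was the higher in replicate 2 and the lower in the others. Because vit-6 has 5080 bases of exon, it led all genes by reads, with a mean of 17881 CPM against 10514 CPM for eef-1A.1.

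The fourth gene, F54D7.7, reached 3177, 3583 and 3261 RPKM and is listed as a pseudogene in the deposited table. Ensembl release 115 names it rpl-41.2 and calls it protein-coding, so a ribosomal protein gene stood there under another class. Its neighbour F54D7.6, now rpl-41.1, followed at 368 ± 12.8 RPKM, and reads that match both copies could not be assigned under counting of uniquely mapped reads. Ribosomal protein genes named rpl or rps took 10 of the 25 highest places. Of these, rps-25 was the highest, at 2413, 2753 and 2415 RPKM. The remaining places included far-2, a fatty acid and retinol binding protein (2441 ± 216 RPKM), lys-7, a lysozyme of the intestine (2280 ± 94.9), cey-2, a Y-box RNA-binding protein of the germ line (2266 ± 211), and cpg-2, a chondroitin proteoglycan of the eggshell (2030 ± 277). Energy and nucleotide metabolism was present with the mitochondrial ADP/ATP carrier ant-1.1 (1881 ± 37.9), the nucleoside diphosphate kinase ndk-1 (1878 ± 162) and Y82E9BR.3, an ATP synthase lipid-binding protein (1832 ± 40.5). The C-type lectin clec-87 stood at 2007 ± 113 RPKM.

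**Figure D2:**
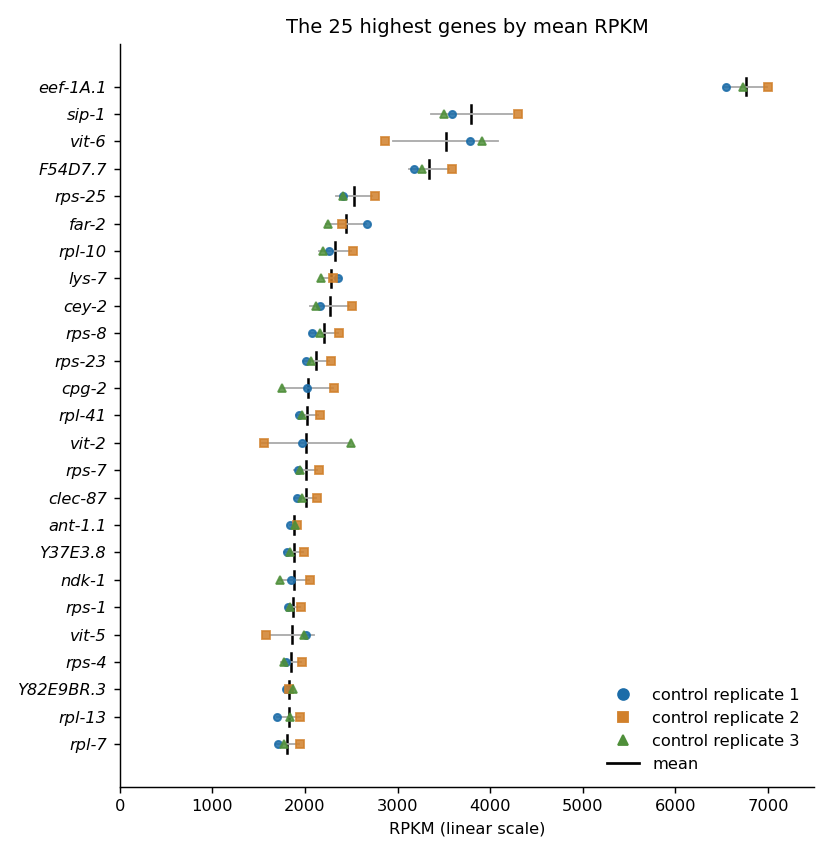
RPKM of the 25 genes highest by mean RPKM (linear axis), with 1 symbol per control library, a black bar at the mean and a grey line for ± 1 s.d. The gene eef-1A.1 stands apart at 6547 to 6997 RPKM, and vit-6, vit-2 and vit-5 are lowest in replicate 2 while most of the others are highest there.

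The 3 libraries shared 19 of their 25 highest genes, and 29 genes entered the list in at least 1 library. The lower edge of the list was not sharp: rpl-7 closed it at 1812 RPKM and rpl-3, next in rank, stood at 1811 RPKM.

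All 6 vitellogenin genes were strongly expressed. The highest after vit-6 were vit-2, with 1973, 1555 and 2501 RPKM, and vit-5, with 2009, 1581 and 1993 RPKM. The genes vit-4 (899 ± 136), vit-3 (782 ± 123) and vit-1 (198 ± 22.96) were lower. The vit-3, vit-4 and vit-5 copies are near identical in sequence, so their separate levels are uncertain. Together the 6 genes drew 49119, 37678 and 51576 CPM in replicates 1, 2 and 3, that is 4.61 ± 0.742% of counted reads. Replicate 2 was the lowest for all 6 genes, also after scaling by TMM or by DESeq2 size factors.

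Genes of protein synthesis took a larger share of reads than the yolk genes. The 79 genes named rpl, rps or rla drew 6.35, 7.11 and 6.44% of reads in replicates 1, 2 and 3 (mean 6.63 ± 0.414%), and 78 of them reached 1 RPKM. The 31 small-subunit genes ran from 609 to 2527 RPKM. Of the 45 large-subunit genes, 44 exceeded 100 RPKM and rpl-42 stood at 0.146 RPKM on 3, 2 and 4 reads. This rpl-42 value and the rpl-25.1 level, 122.1 ± 7.04 RPKM, were the lowest of the list and were picked out after the values were seen. The elongation factors behind eef-1A.1 were eef-1G (1673 ± 58.9), eef-2 (1320 ± 23.5) and eef-1B.1 (974 ± 20.5). The mitochondrial ribosomal proteins stood an order lower, with a median of 46.0 RPKM for the 38 mrpl genes and 53.7 RPKM for the 27 mrps genes, and every one of these genes was above 10 RPKM.

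Genes of energy metabolism were strongly expressed. The 11 nuclear ATP synthase genes found had a median of 391 RPKM, led by the catalytic beta subunit atp-2 with 838, 884 and 858 RPKM. Of 12 protein-coding genes of the mitochondrial genome, 8 exceeded 100 RPKM, and together they took 0.616 ± 0.0412% of reads. The highest of them were MTCE.23, which encodes subunit III of cytochrome c oxidase, at 1447 ± 202 RPKM, and MTCE.26 at 1166 ± 91.5 RPKM, while ctb-1, cytochrome b, stood at 812 ± 7.18 RPKM. Glycolytic genes were lower, with 18 of 19 above 1 RPKM and a median of 92.3 RPKM. They were led by the aldolase aldo-2 (566 ± 35.7) and the enolase enol-1 (417 ± 37.7).

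Genes of oocytes and the germ line were strongly expressed. All 28 oocyte and germ line genes of the list exceeded 1 RPKM, with a median of 278 RPKM. The highest were the maternal RNA-binding protein gene pos-1, with 1226, 1346 and 1254 RPKM, the helicase cgh-1, with 1078, 1143 and 1007 RPKM, and spn-4, with 853, 987 and 834 RPKM. Eggshell and egg activation genes were as uniformly present. All 15 exceeded 100 RPKM, with a median of 209 RPKM, and cpg-2, perm-2 (1674 ± 155), cpg-1 (1505 ± 189) and perm-4 (1416 ± 196) led them. The genes perm-2 and perm-4 belong to the permeability barrier of the shell.

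Sperm transcripts were low by the same measure. Of 36 sperm genes found, 3 reached 1 RPKM, and the median was 0.160 RPKM. The highest were ssp-10 with 4.51, 3.45 and 4.15 RPKM, ssq-1 with 1.43, 1.48 and 1.94 RPKM, and the sperm calcium channel spe-41 with 1.39, 1.38 and 1.45 RPKM. The genes msp-19 and msp-78 had no read in any control library. None of the 30 major sperm protein (msp) genes, which encode the cytoskeleton of the crawling sperm, reached 1 RPKM. The highest, msp-64, stood at 0.317 RPKM. The msp copies resemble each other closely, and reads shared between copies are lost when unique mapping is required.

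Markers of the intestine, body wall muscle and epidermis had lower medians than the oocyte and eggshell lists. All 17 intestinal genes found were above 1 RPKM, with a median of 24.4 RPKM. Their head was the cathepsin B-like protease cpr-1, with 302, 241 and 551 RPKM, followed by the aspartyl protease asp-1 (274 ± 28.8) and the stearoyl-CoA desaturase fat-6 (103 ± 16.98). Body wall muscle genes had a median of 24.2 RPKM and 17 of 18 exceeded 1 RPKM. The troponin C gene pat-10 led them with 173, 143 and 128.6 RPKM, and the actin act-4 followed with 177, 133 and 120 RPKM. In the epidermis, 12 of 16 genes exceeded 1 RPKM with a median of 9.69 RPKM, headed by the zinc-finger gene lin-26 (96.0 ± 6.50). Antimicrobial peptide genes of the epidermis followed, nlp-31 at 48.1 ± 5.68 RPKM and nlp-29 with 63.5, 37.1 and 36.8 RPKM. The exons of lin-26 overlap those of lir-1.

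Markers of neurons and pharynx were lower. Of 27 neuronal genes found, 18 exceeded 1 RPKM and the median was 1.99 RPKM. Synaptobrevin, snb-1, led with 259, 255 and 272 RPKM, and tyrosine decarboxylase tdc-1 followed with 127, 141 and 118 RPKM, its exons overlapping those of gei-14. The next were sbt-1 (33.7 ± 4.23) and egl-21 (21.3 ± 3.32), so snb-1 and tdc-1 do not stand for the level of the list. Among the 15 pharyngeal genes, 10 exceeded 1 RPKM and the median was 5.17 RPKM. The highest, the sodium pump eat-6 (261 ± 24.1), is not restricted to the pharynx. The 3 coelomocyte genes lay between 1.18 and 2.99 RPKM. The 6 genes of the excretory canal ran from 0.476 to 36.7 RPKM, led by the chloride channel protein gene exc-4. The 7 genes of the somatic gonad ran from 1.18 to 73.0 RPKM, led by the sheath innexin inx-8.

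Most genes of the larval and embryonic lists lay under 10 RPKM. That level was reached by 1 of 15 moulting genes and 2 of 15 early embryonic genes, against 6949 of 20532 protein-coding genes. Of the moulting genes, 13 (86.7%) exceeded 1 RPKM, against 55.4% of all protein-coding genes. Their median was 2.47 RPKM, against 1.77 RPKM over all protein-coding genes. The nuclear receptor nhr-23 stood highest at 27.9 ± 1.90 RPKM and was even across libraries. The apical matrix genes noah-2 (12.7, 5.38 and 4.36 RPKM) and noah-1 (11.8, 4.86 and 4.86 RPKM) were highest in replicate 1. In the list of adult cuticle collagens, 3 of 10 exceeded 1 RPKM, the adult marker col-19 with 51.8, 32.1 and 33.6 RPKM. Of 15 genes transcribed in the early embryo, 8 (53.3%) exceeded 1 RPKM, near the 55.4% of all protein-coding genes. Among them the homeobox gene pal-1, whose maternal RNA is stored in oocytes, was highest at 141.6 ± 10.5 RPKM. Set against the labelled adult stage, all 6 vitellogenin and all 15 eggshell genes were above 100 RPKM, all 28 oocyte and germ line genes were above 10 RPKM, and 3 of 36 sperm genes reached 1 RPKM.

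**Figure D3:**
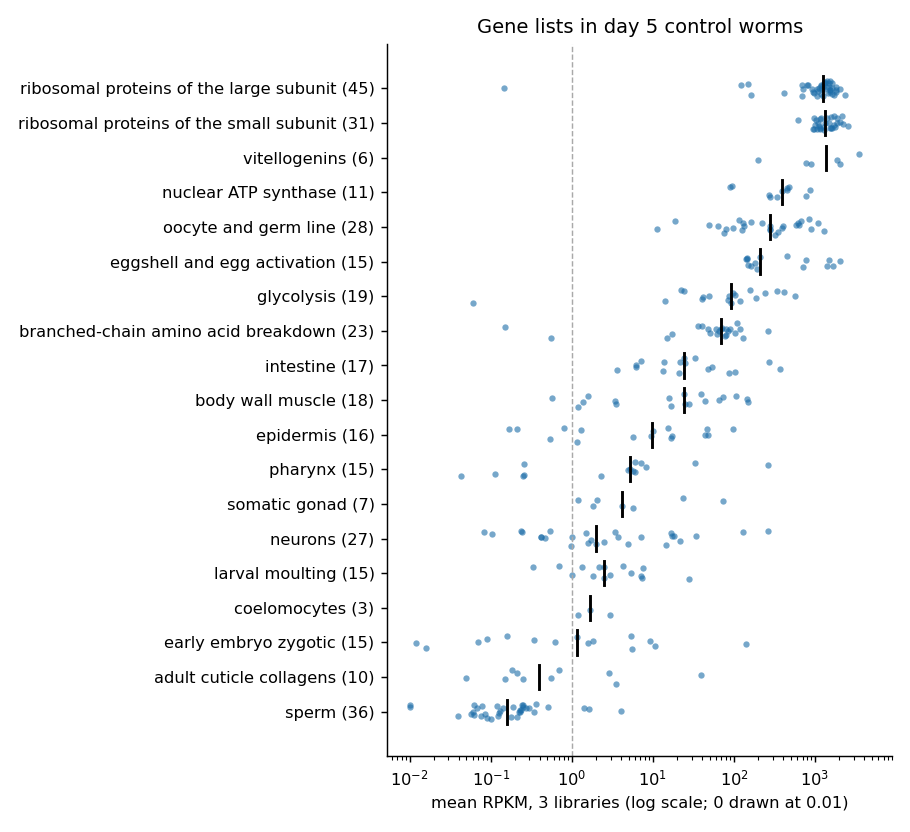
Mean RPKM over 3 control libraries (log scale) of each gene in 19 lists, with the number of genes found in parentheses, a black bar at the list median and a dashed line at 1 RPKM. The medians run from 1380 RPKM for the vitellogenins to 0.160 RPKM for sperm genes, whose 2 genes without reads are drawn at 0.01.

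Stress and defence genes covered a wide range. The constitutive chaperones hsp-1 (1402 ± 12.32) and daf-21 (1073 ± 15.3), cytosolic members of the HSP70 and HSP90 families, were among the evenest of the abundant genes. The mitochondrial chaperone hsp-6 stood at 326 ± 16.7 RPKM, and hsp-3 of the endoplasmic reticulum at 233 ± 44.8 RPKM. Among 18 genes of oxidative and metal defence, 16 exceeded 1 RPKM, and the peroxiredoxin prdx-2 (694 ± 37.4), the ferritin ftn-2 (269 ± 33.7) and the superoxide dismutase sod-1 (201 ± 8.10) led them. Of 27 antimicrobial effector genes, 24 exceeded 1 RPKM. Behind lys-7, the saposin-like genes spp-5 (1252, 958 and 1194 RPKM) and spp-14 (761, 708 and 833 RPKM) were highest.

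Large gene families differed widely in how many of their members were expressed. Chemoreceptor genes of 17 families lay mostly under 1 RPKM. Of 1286 such genes, 260 had no read in any control library and 15 (1.17%) reached 1 RPKM, against 55.4% of all protein-coding genes. Their median was 0.0184 RPKM and together they drew 105 ± 14.2 CPM. The highest were sre-4, with 6.09, 6.43 and 5.64 RPKM, srv-1, with 5.36, 5.09 and 5.44 RPKM, and str-7, with 4.55, 4.42 and 5.14 RPKM, which were even between libraries. Of 254 C-type lectin genes (clec), 61 reached 1 RPKM and the median was 0.124 RPKM, although clec-87 and clec-88 (517 RPKM) were abundant. Of 157 col genes, 54 reached 1 RPKM, led by col-122 (409, 300 and 219 RPKM) and col-181 (306, 214 and 146 RPKM).

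Other families lay on both sides of the 55.4% of all protein-coding genes. Of 278 nuclear hormone receptor genes (nhr), 152 (54.7%) reached 1 RPKM with a median of 1.203 RPKM. The lipid metabolism regulator nhr-49 was highest at 63.6 RPKM. Of 192 F-box genes named fbxa, 97 reached 1 RPKM, and of 110 named fbxb, 84 did. The fbxb genes were individually low, since their median was 1.89 RPKM and the highest, fbxb-7, stood at 15.2 RPKM. Of 44 genes named nlp, 36 exceeded 1 RPKM, and of 30 flp genes, 29 did. The nlp genes include the epidermal antimicrobial peptide genes nlp-29 and nlp-31, and nlp-40 led them with 154.7, 122.04 and 129.8 RPKM. Every member exceeded 1 RPKM among the 29 dnj co-chaperones, the 20 Mediator subunits (mdt) and the 22 nucleoporins (npp), with medians of 46.99, 70.9 and 78.8 RPKM. The same held for the rps, mrpl and mrps families described above, and for no other family of at least 20 members.

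Transcripts outside protein-coding genes drew few of the counted reads. The library kit selects polyadenylated RNA and only uniquely mapped reads were counted, so these shares are not those of total RNA. Protein-coding genes held 99.09, 99.25 and 98.95% in replicates 1, 2 and 3 (mean 99.1 ± 0.150%), pseudogenes 0.436 ± 0.00826%, ribosomal RNA 0.271, 0.152 and 0.385% in replicates 1, 2 and 3, and genes of class ncRNA 0.184 ± 0.0246%. The widest 95% Wilson interval among these 4 classes, that of the protein-coding share, had a half-width of 0.00311 percentage points, and that of the pseudogene share one of 0.00224. The long noncoding RNA tts-1, on chromosome X (1504131 to 1504841), was the highest of its class at 1165, 964 and 1415 RPKM and stood 79 in the ranking of all genes. Behind it, C41C4.19 (320 ± 20.4) and F20C5.10 (270 ± 31.4) lie within exons of ulp-4 and elli-1, and their reads cannot be told apart from those of the host genes. The ribosomal RNA gene rrn-3.1 varied more than 2-fold, with 552, 290 and 814 RPKM, and rrn-3.56 moved with it, with 214, 106 and 291 RPKM. Replicate 2 was the lowest for both.

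Small RNA classes were almost unread. Of 15366 rows named 21ur, the piRNA loci, 746 had a read and together they drew 0.00156 ± 0.000257% of reads. Of 634 tRNA genes, 35 had a read, and of 221 miRNA genes, 64 did. The highest miRNA row with at least 10 reads in every library, mir-262, rested on 22, 16 and 30 reads. Of 342 snoRNA genes, 206 had a read. Their highest, ZK858.10 (205 ± 10.5 RPKM), F41E6.18 (112 ± 17.9) and K10D3.10 (103 ± 4.50), share exon positions with gld-4, smk-1 and hpo-11. The library kit selects polyadenylated RNA, and these counts give no level of the mature small RNAs.

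The gene at the centre of the study, bcat-1, was well expressed in the control worms. It encodes the branched-chain amino acid transferase, the first enzyme of leucine, isoleucine and valine breakdown, and lies on chromosome X (12877480 to 12880328). Its level was 68.4, 64.6 and 82.6 RPKM (mean 71.9 ± 9.49), on 5454, 3904 and 6299 reads, and its rank was 2358. The second aminotransferase gene of the list, Y44A6D.5, stood at 0.149 RPKM. Of 23 genes of branched-chain amino acid breakdown found, 21 exceeded 10 RPKM, with a median of 68.3 RPKM, so bcat-1 lay near the middle of its pathway. The highest member was alh-8, which encodes methylmalonate-semialdehyde dehydrogenase, with 251, 220 and 318 RPKM. The enoyl-CoA hydratase ech-6 (129.1 ± 3.35), the lipoamide dehydrogenase dld-1 (118.7 ± 1.76) and the propionyl-CoA carboxylase subunit pccb-1 (109 ± 9.36) followed.

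The signalling genes the study examined ran from 121 RPKM for skn-1 to 1.33 RPKM for daf-7, with hlh-15 below them at the limit of detection. The transcription factors skn-1 (121, 127 and 117 RPKM), hsf-1 (70.6, 77.2 and 72.7) and daf-16 (51.1, 52.3 and 49.4) were highest and even between libraries, the exons of skn-1 overlapping those of csn-5. In the mTOR pathway, the raptor gene daf-15 stood at 43.1 RPKM and the kinase gene let-363 at 28.1 RPKM. The insulin receptor gene daf-2 stood at 29.3 RPKM, and the AMP-activated kinase genes aak-1 and aak-2 at 28.1 and 20.4 RPKM. In the TGF-beta pathway, the receptor genes daf-1 and daf-4 (24.1 and 17.7 RPKM) exceeded the SMAD genes daf-3, daf-14 and daf-8 (9.22, 7.61 and 7.42 RPKM). The ligand gene daf-7, known for its expression in the ASI sensory neurons, was lower, with 1.54, 1.16 and 1.30 RPKM. The basic helix-loop-helix gene hlh-15 had 2, 0 and 1 reads in replicates 1, 2 and 3, at the limit of detection.

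Expression differed by chromosome. Protein-coding genes with a read had a median of 13.2 RPKM on chromosome III and 10.1 RPKM on I, against 2.52 on IV, 2.14 on II, 1.76 on X and 0.600 on V. The lowest autosome, V, carried 430 of the 884 protein-coding genes without a read. Of genes on X, 56.8% reached 1 RPKM, near the 55.7% of autosomal genes, yet 2.32% reached 100 RPKM against 8.07% of autosomal genes. The X chromosome thus held few strongly expressed genes. Among those it held were the vitellogenin genes vit-1 to vit-5, which lie on X, and X genes as a whole drew 7.66 ± 0.820% of reads. The ratio of the X median to the autosomal median was 0.725, with 0.704, 0.724 and 0.735 in replicates 1, 2 and 3 over the same genes. This ratio depended on the genes taken, falling to 0.302 among genes of at least 1 RPKM and to 0.393 with chromosome V left out.

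The libraries resembled each other closely. Over 11919 genes of at least 1 RPKM, Spearman correlations of levels across genes were 0.992 for replicates 1 and 2, 0.987 for 1 and 3, and 0.988 for 2 and 3. These are descriptions across genes, which are not independent replicates. The median of these genes had a s.d. of 0.114 between libraries on the log2(RPKM + 0.1) scale, against 0.230 over all genes with a read. The common biological coefficient of variation, estimated with edgeR over 14049 genes, was 0.145. The square root of the median gene-wise dispersion of DESeq2 over the same genes was 0.0627. The spread changed with level. The median s.d. fell from 0.265 between 1 and 3 RPKM to 0.0629 between 30 and 100 RPKM, and was 0.0924 at or above 300 RPKM. The s.d. expected from counting error had a median of 0.180, 0.0258 and 0.00929 in the same classes. The median s.d. of 3 values tends to lie below an expected s.d. The observed and the counting values are therefore not strictly like for like. The gap between the observed and the counting value was 0.0859, 0.0371 and 0.0832 in these classes, so it did not shrink steadily with level.

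**Figure D4:**
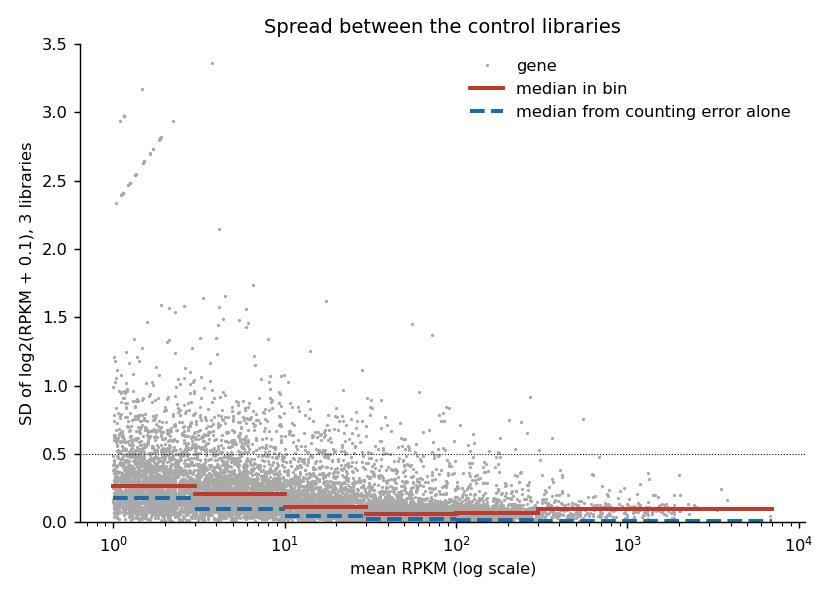
Standard deviation of log2(RPKM + 0.1) over 3 control libraries against mean RPKM (log scale), with 1 point per gene of at least 1 RPKM. Lines show the observed median in each level class (solid) and the median of the s.d. expected from counting error (dashed). The solid line falls from 0.265 to 0.0629 and ends at 0.0924, and the dashed line falls to 0.00929; the dotted line marks 0.5.

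Of 7089 genes of at least 10 RPKM, 165 (2.33%) had a s.d. of at least 0.5, and 6 had a s.d. of at least 1. For each of the 165, the library farthest from the other pair was noted. Replicate 3 stood high in 66 of them and low in 19, replicate 1 high in 38 and low in 2, and replicate 2 low in 40 and high in 0. The most variable gene was fmo-2, a flavin-containing monooxygenase on chromosome IV (10682524 to 10684367), with 5.79, 5.80 and 40.9 RPKM. The alcohol dehydrogenase sodh-1 was likewise highest in replicate 3, with 18.6, 12.1 and 54.3 RPKM, its exons overlapping those of sodh-2. In the opposite direction, far-3, from the same family as far-2, stood at 384, 305 and 116 RPKM, and the fatty acid desaturase fat-5 at 43.3, 36.2 and 14.4 RPKM. Both were lowest in replicate 3.

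Neighbouring genes appeared together among the most variable. Between 3892327 and 3895506 on chromosome IV lie F56D6.9, with 110, 42.1 and 14.6 RPKM, F56D6.8, with 145, 49.7 and 21.8 RPKM, and dct-8, with 107, 46.1 and 29.02 RPKM. All 3 were highest in replicate 1 and lowest in replicate 3. On chromosome I, Y106G6D.1 (7.66, 5.82 and 18.7 RPKM) and Y106G6D.2 (10.02, 7.18 and 23.8 RPKM) were both highest in replicate 3. The insulin-like gene ins-2 (28.7, 5.32 and 8.38 RPKM) and the aquaporin aqp-2 (53.8, 16.38 and 20.6 RPKM) were highest in replicate 1. The 4 remaining genes among the 15 most variable, hmg-6, Y37E3.23, Y53F4B.45 and F46F2.3, had a s.d. between 0.895 and 1.03.

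Some gene families had several members among the 165. The genes named in the rest of this paragraph were chosen after their values were seen. In replicate 3, 6 of the 18 skr genes of at least 10 RPKM, which encode SKP1-related ubiquitin ligase components, stood high, against 0.931% of all genes of that level. Examples were skr-9 with 61.7, 48.7 and 141 RPKM and skr-8 with 65.2, 51.6 and 138 RPKM. Also high there were 4 of the 4 sdz genes of at least 10 RPKM. Of 34 sdz genes with a read, 27 (79.4%) were highest in replicate 3, against 37.9% of all protein-coding genes with a read. The single genes vet-1 (22.87, 18.997 and 47.9 RPKM), pes-2.1 (64.3, 48.2 and 131 RPKM) and tbx-43 (9.56, 6.58 and 20.2 RPKM) were high there too. The list of early embryonic genes summed to 235, 244 and 250 CPM in replicates 1, 2 and 3. Its highest member, pal-1, stood at 141.6 RPKM, against 10.7 RPKM for elt-1, the next. Replicate 3 was the highest for 8 of its 15 genes (53.3%), against 37.9% of all protein-coding genes with a read. It was the highest for 0 of the 2 genes of at least 10 RPKM, pal-1 and elt-1. The next members by level spread widely between libraries: tbx-38 at 9.31 ± 6.78 RPKM, pes-10 at 5.49 ± 3.10 and tbx-37 at 5.37 ± 3.53. The sum and these 2 genes therefore do not describe the lower members. Whether the list shares the pattern of the sdz genes was not tested. The fbxb family as a whole drew 297, 206 and 427 CPM, and 87 of its 109 members with a read (79.8%) were highest in replicate 3, against 37.9% of all protein-coding genes with a read. In replicate 1, some cuticle genes stood high, with sqt-3 at 26.4, 11.1 and 13.2 RPKM, dpy-17 at 34.8, 14.95 and 16.999 RPKM, and 17 of the 19 col genes of at least 10 RPKM highest there, against 22.5% of all protein-coding genes of that level. Lower col genes did not share this, since 56 of all 155 col genes with a read (36.1%) were highest in replicate 1, against 35.9% of all protein-coding genes with a read. In the list of adult cuticle collagens 3 of 10 were. In replicate 2, the heat-shock genes hsp-16.1 (27.3, 15.1 and 42.1 RPKM), hsp-16.11, hsp-16.48 (47.1, 20.8 and 50.6 RPKM) and hsp-16.49 stood low. They were 4 of the 13 hsp genes of at least 10 RPKM, against 0.564% of all genes of that level that stood low in replicate 2. Near-identical copies among the hsp-16 genes make their separate levels uncertain, so they do not count as independent members. Members of the same family, such as skr-8 and skr-9, can move together. The skr, sdz, fbxb and col counts are therefore not counts of independent genes either.

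**Figure D5:**
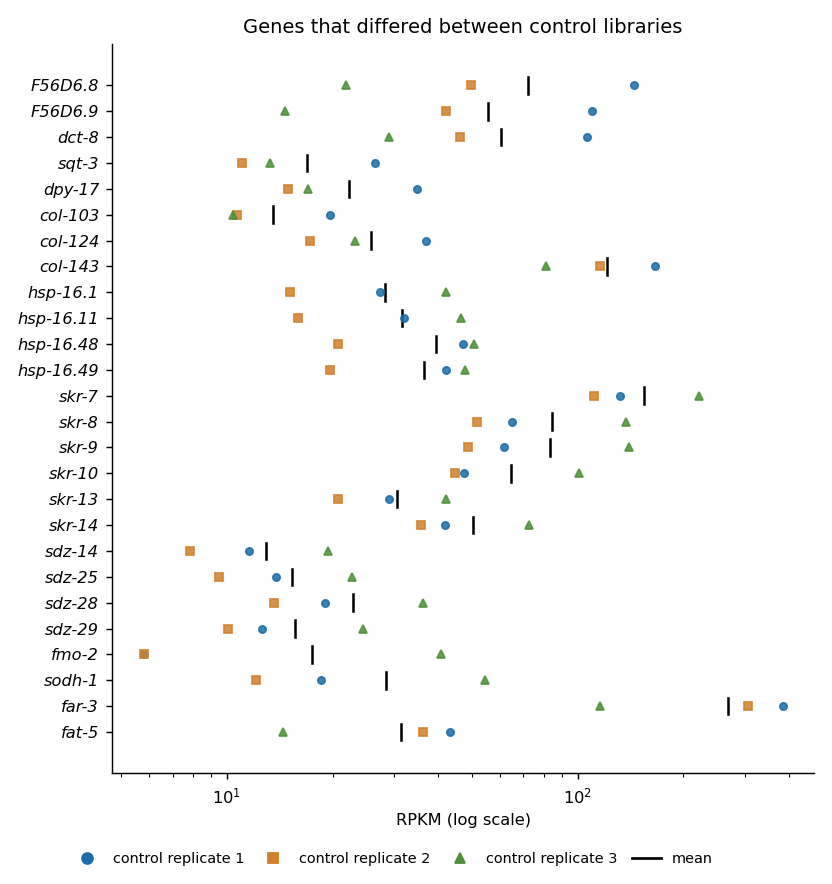
RPKM (log scale) of 26 genes with a standard deviation of log2(RPKM + 0.1) of at least 0.5, with 1 symbol per control library and a black bar at the mean. The skr and sdz genes, fmo-2 and sodh-1 are highest in replicate 3, the collagen genes and dct-8 are highest in replicate 1, and the hsp-16 genes are lowest in replicate 2.

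Germ line and somatic lists ranked the libraries differently. Replicate 2 was the highest library for 27 of 28 oocyte and germ line genes, 13 of 15 eggshell genes and 72 of 75 ribosomal protein genes of at least 10 RPKM. Over all 6949 protein-coding genes of that level it was the highest for 45.5%, and after scaling by DESeq2 size factors, with the same 27 and 13 genes and 73 ribosomal protein genes, for 57.4%. The summed germ line list stood at 17637, 19355 and 17058 CPM in replicates 1, 2 and 3, a difference of 1.13-fold between the extremes. Conversely replicate 2 was the highest for 0 of 12 body wall muscle genes and 0 of 13 intestinal genes of that level, and for 1 of each after scaling by DESeq2 size factors. Replicate 1 was the highest for 11 of the 12 body wall muscle genes, against 22.5% of all protein-coding genes of that level, and for 10 of 12 against 19.02% after scaling by DESeq2 size factors. Replicate 2 was also the shallowest library and the lowest in ribosomal RNA, and the part of these in the pattern was not tested.

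The steadiest genes were of moderate level. Among genes of at least 10 RPKM, eea-1, the early endosome antigen gene, had the smallest s.d., with 31.3, 31.4 and 31.4 RPKM. The immunophilin fkb-1 (84.0, 83.9 and 84.1 RPKM) and the dihydroorotate dehydrogenase dhod-1 (56.5, 56.3 and 56.3 RPKM) were close behind. Their s.d. on the log2 scale was 0.00129, 0.00179 and 0.00206. These values lay below the s.d. of 0.0210, 0.0205 and 0.0242 expected from counting error, so their order among steady genes has no meaning beyond this selection.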

How the data were processed

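RNA of 3 control libraries was analysed, and the 3 bcat-1 RNA interference libraries were not used here. According to the labels and methods, the authors made libraries with the TruSeq RNA kit, mapped single reads to WBcel235 with TopHat2 2.0.6 and used featureCounts to assign uniquely mapped reads to genes. The deposited counts are whole, unnormalised reads per gene. The deposited RPKM values divide these by exon length and by each library's counted reads: the implied exon lengths were whole within 0.001 base for 100% of values tested. Neither the strand setting nor the featureCounts version is given in the sources used here.

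Levels are means ± s.d. of deposited RPKM, and CPM was computed from the counts. Spread was taken on log2(RPKM + 0.1). The biological coefficient of variation came from edgeR 4.0.16 without covariates, after a check on simulated data, and DESeq2 1.42.0 gave alternative size factors (R 4.3.3, Python 3.11.15). With 1 group no test between groups was run. Intervals are 95% Wilson intervals. They and the limit of 3 reads cover counting error only. Each pair of libraries differed by more than counting noise, so none was counted as a duplicate.

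Positions and current names are from the Ensembl release 115 annotation of WBcel235, which matched 46180 of 46589 gene identifiers (99.1%). Genes were named by rule: the 25 highest by mean RPKM, up to 3 of each other biotype with at least 10 reads in every library, the 15 largest and 10 smallest s.d. at 10 RPKM or more, up to 4 highest of each list with those at 0, the 2 highest of each family described, and the study's signalling genes. Exceptions are stated. The members and the 24 gene lists (375 of 396 symbols found) were chosen with earlier results of these data known. The list of mitochondrially encoded genes matched 1 of its 12 symbols and was replaced by the 12 protein-coding genes of that chromosome. Families were gene name prefixes with at least 20 protein-coding members. Alternatives were other scalings, pseudocounts, thresholds and rankings, and leaving out each library.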

Additional observations from a re-analysis of the deposited data

How the results depend on the processing

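The counts of genes (with a read, at 1 RPKM or more, holding 50% of reads, shared among the 25 highest) stayed within 1.5 times the reported number under each alternative run, and with each library left out. This band is wide. Genes with a read numbered 23672, but 17084 had at least 10 reads summed. Protein-coding genes numbered 11375 at 1 RPKM, 12863 at 0.5 RPKM and 8243 at 5 RPKM, so these counts depend on the threshold. Of the shares and spreads, the top 10 share was 6.87% when ranked by CPM and ranged from 4.19 to 5.30% with 1 library left out, the highest value arising without replicate 2. The protein-coding share was 97.9% of summed RPKM. The median s.d. was 0.102 with a pseudocount of 1 and 0.230 over all genes with a read, and 0.0791 to 0.101 with 1 library left out. Leaving out a library gives fewer values per gene, and the median s.d. of fewer values tends to be lower. This range is therefore not like for like with the 0.114 of 3 libraries. The common biological coefficient of variation was 0.125 to 0.151 with 1 library left out, lowest without replicate 3. The square root of the median of DESeq2's gene-wise dispersions was 0.0627. The X to autosome ratio was 0.839 over all protein-coding genes, 0.302 at 1 RPKM or more, 0.656 to 0.696 with 1 library left out, and, in alternatives chosen after seeing the data, 0.908, 0.701, 0.974 and 0.393 without chromosomes I, II, III and V. The cause of these shifts was not tested. Levels of single genes and summed lists moved by less than 1 s.d. under TMM and DESeq2 scaling in all 903 cases. Both sets of factors were centred and close to 1, the TMM factors being 1.006, 0.986 and 1.008 in replicates 1, 2 and 3. A mean over the 3 libraries could therefore hardly move, and this result says little about stability. Leaving out 1 of 3 values cannot move a mean by more than 1 s.d., so that alternative says nothing about stability. No paired analysis was possible because 1 group is described and the labels carry no replicate numbers. Depth limits the genes under the 3-read level, where 0 reads do not show absence.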
